A study of Mus musculus with 15 samples.

Results

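A set of 10 transcripts stood apart in nuclei of dopamine neurons taken after cocaine maintenance: Tmem145, Gpr162, Plppr3, Prr14, Trp53inp2, Leng8, Atxn2l, Lars2, Fastk and Lypla2. They were taken by symbol from a count table of 35976 genes. Each had been chosen for its difference between the maintenance libraries and the other dopaminergic libraries, so that difference describes the choice and is given here with no test. In the maintenance libraries 9 of the 10 were lower and 1, Prr14, was higher.

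RNA was sequenced from nuclei of the ventral tegmental area, the midbrain region whose dopamine neurons project to the forebrain. All mice were male, heterozygous for DAT-Cre (B6.SJL-Slc6a3tm1.1(cre)Bkmm/J, with Cre under control of the dopamine transporter locus) and 8 to 12 weeks old, and all received AAV5-DIO-KASH-HA, a Cre-dependent virus that places an HA-tagged protein on the nuclear envelope, 14 days before behavioural work. HA-positive nuclei were collected as dopaminergic and HA-negative nuclei as non-dopaminergic, with tissue of 2 mice in each sample. Mice of all groups first had 7 days of lever training for food. The groups were dopaminergic nuclei after that training with no cocaine (FT, n = 4), after the training and 5 days of self-administered cocaine at 0.3 mg/kg per infusion and 10 more at 1.0 mg/kg in sessions of 1 hour (maintenance, MN, n = 3), and after the same schedule plus 21 days of abstinence in the home cage (CRV, n = 4), with non-dopaminergic nuclei of food-trained mice as the last group (nDA, n = 4). The HA-negative sort keeps every nucleus without the tag, glia and any untransduced dopamine neuron included, and was made in food-trained mice alone.

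The 10 genes code for proteins of unrelated kinds: membrane proteins, nuclear and RNA-binding proteins, mitochondrial proteins and a cytosolic thioesterase. RNA in a nucleus reflects transcription, splicing and retention before export, so a nuclear level need not follow the level of the exported messenger RNA. In sorted bulk nuclei, fewer cells of one type and less RNA per cell cannot be told apart.

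Library totals ran from 25813697 to 59046618 counts, and the lowest count of any of the 10 transcripts in any library was 250, for Atxn2l in MN replicate 1 (95% exact Poisson interval 220 to 283, counting error only). Levels below are in CPM, counts made comparable between libraries by total and TMM factor and not divided by length, so they compare libraries and not genes. Slc6a3, the dopamine transporter, was at 1776 to 4484 CPM in the dopaminergic libraries and at 76.8 to 119 CPM in the nDA libraries, and Th, tyrosine hydroxylase, at 492 to 1380 against 29.2 to 40.8 CPM. One library stood apart within its group: nDA replicate 2 differed from the other 3 nDA libraries in many genes, and the comparison of the populations, the likeness between transcripts and the relatives' counts between populations are given with and without it (the last 2 chosen after seeing the data). Nothing in the labels says that the replicates came from separate cohorts, so p-values measure the spread between these pooled samples.

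Among the membrane proteins, Tmem145 (chr7:25306106-25316195 in GRCm38, + strand, 15 exons in its longest GENCODE M21 transcript), a multi-pass protein expressed in brain, was at 221, 156, 169 and 189 CPM in FT replicates 1 to 4. Its levels were 26.2, 25.4 and 20.8 CPM in MN replicates 1 to 3 and 172, 244, 286 and 189 CPM in CRV replicates 1 to 4. In the nDA libraries it stood at 244, 32.6, 214 and 239 CPM. The 3 MN libraries and nDA replicate 2 were the 4 low ones, and the highest of them was well under the lowest of the other 11. The MN minus FT difference was a log2 fold change of -2.93 (SE 0.27), a 7.61-fold lower level. The RefSeq window from 250 bases before to 50 after its start (chr7:25305858-25306157, GRCm38.p6, + strand) is shown because this transcript had the lowest p-value of all 19060 genes tested in that contrast, the contrast it was chosen on. Capitals mark the GC-box core GGGCGG on either strand.
Tmem145: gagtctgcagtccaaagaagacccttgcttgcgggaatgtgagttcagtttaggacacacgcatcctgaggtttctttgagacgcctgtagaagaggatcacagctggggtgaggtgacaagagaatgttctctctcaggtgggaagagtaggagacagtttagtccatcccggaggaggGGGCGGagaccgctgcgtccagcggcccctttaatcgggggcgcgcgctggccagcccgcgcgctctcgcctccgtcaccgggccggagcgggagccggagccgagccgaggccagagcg

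Gpr162 (chr6:124858444-124863983, - strand), an orphan G protein-coupled receptor of brain, was at 102, 125, 135 and 167 CPM in FT and at 42.4, 48.0 and 30.5 CPM in MN. It was at 137, 158, 208 and 142 CPM in CRV and at 73.4, 22.01, 98.0 and 104 CPM in nDA. Here nDA replicate 2 lay below all 3 MN libraries, and the MN libraries lay below every FT and CRV library. The MN minus FT log2 fold change was -1.72 (SE 0.27).

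Plppr3 (chr10:79860475-79874634, - strand), a membrane protein of growing axons in the family of phospholipid phosphatase-related proteins, was at 403, 293, 350.1 and 364 CPM in FT and at 87.7, 129.9 and 75.5 CPM in MN. It was at 322, 429.6, 454 and 252 CPM in CRV and at 264, 54.5, 227 and 284 CPM in nDA. The order was the same as for Gpr162, with nDA replicate 2 lowest of the 15 and no overlap between MN and the other dopaminergic libraries. Its MN minus FT log2 fold change was -1.85 (SE 0.29).

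Prr14 (chr7:127459611-127476759, + strand), a nuclear protein that tethers heterochromatin to the lamina through HP1, was the 1 member that was higher. It was at 69.9, 58.6, 104 and 74.2 CPM in FT, at 239, 250.4 and 227 CPM in MN, at 94.4, 74.8, 70.0 and 76.0 CPM in CRV, and at 83.1, 163, 75.9 and 81.8 CPM in nDA. MN was the highest group, nDA replicate 2 came next, between MN and all other libraries, and FT, CRV and the other 3 nDA libraries overlapped. The MN minus FT log2 fold change was 1.64 (SE 0.24), or 3.11-fold. Its RefSeq start lies inside the span that GENCODE gives the gene, and the window around it (chr7:127471364-127471663, GRCm38.p6, + strand) is shown as that of the 1 transcript with the opposite direction. Capitals mark CCAAT on either strand (read as ATTGG on the printed strand where the match is on the other), and GGGCGG does not occur in it.
Prr14: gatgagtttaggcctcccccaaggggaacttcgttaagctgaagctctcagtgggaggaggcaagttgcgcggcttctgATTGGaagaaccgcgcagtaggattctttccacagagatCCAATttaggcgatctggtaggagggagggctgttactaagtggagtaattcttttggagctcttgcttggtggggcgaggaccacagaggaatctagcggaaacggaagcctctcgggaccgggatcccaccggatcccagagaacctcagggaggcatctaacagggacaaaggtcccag

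Trp53inp2 (chr2:155381059-155389850, + strand), which takes part in autophagosome formation and also acts as a nuclear coactivator, was at 161, 138, 144 and 184 CPM in FT and at 47.1, 49.3 and 38.8 CPM in MN. It was at 136, 138, 150.4 and 176 CPM in CRV and at 137, 47.4, 106 and 133 CPM in nDA. This was the 1 transcript whose level in nDA replicate 2 fell inside the range of the MN libraries. Its MN minus FT log2 fold change was -1.80 (SE 0.23). Its window (chr2:155381606-155381905, GRCm38.p6, + strand) is shown because it was the only one of the 11 member windows to hold the full cyclic AMP response element TGACGTCA. Capitals here mark that element, CCAAT and GGGCGG on either strand.
Trp53inp2: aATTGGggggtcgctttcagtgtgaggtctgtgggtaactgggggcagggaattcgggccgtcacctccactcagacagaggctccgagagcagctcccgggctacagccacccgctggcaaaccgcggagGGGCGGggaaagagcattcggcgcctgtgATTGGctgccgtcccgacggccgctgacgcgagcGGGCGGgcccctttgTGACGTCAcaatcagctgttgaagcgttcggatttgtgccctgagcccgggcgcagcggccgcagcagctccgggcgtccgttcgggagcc

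Both transcripts of RNA-handling proteins were lower at maintenance and higher in most nDA than in most FT libraries. Leng8 (chr7:4137039-4148177, + strand), a nuclear protein with the SAC3 domain found in messenger RNA export factors, was at 436, 294, 568 and 412 CPM in FT, at 50.1, 116 and 59.02 CPM in MN, at 456, 367, 432 and 576 CPM in CRV and at 1184, 117, 1007 and 841 CPM in nDA. Atxn2l (chr7:126491708-126503437, - strand), an RNA-binding relative of ataxin-2 found in stress granules, was at 88.4, 35.1, 64.9 and 80.7 CPM in FT, at 5.16, 12.6 and 6.71 CPM in MN, at 57.3, 56.2, 64.2 and 89.0 CPM in CRV and at 152, 23.1, 218 and 180.1 CPM in nDA. For both, the MN libraries were lowest and nDA replicate 2 was the next lowest library of the 15. MN minus FT log2 fold changes were -2.51 (SE 0.35) for Leng8 and -3.05 (SE 0.43) for Atxn2l, the latter the largest of the 10 in size.

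The mitochondrial proteins parted in the nDA libraries. Lars2 (chr9:123366927-123462666, + strand), the leucyl-tRNA synthetase of mitochondria, was at 165, 207, 274 and 140.2 CPM in FT, at 31.9, 58.4 and 32.6 CPM in MN, at 266, 149, 193 and 235 CPM in CRV and at 26.6, 19.3, 37.5 and 21.1 CPM in nDA. All 4 nDA libraries were low, replicate 3 within the MN range and replicates 1, 2 and 4 below it, so the low level of replicate 2 did not separate it from its group as it did for the other members. Fastk (chr5:24438440-24445287, - strand), the founding member of a family that binds mitochondrial RNA, was at 75.1, 45.3, 46.5 and 78.9 CPM in FT, at 17.5, 17.4 and 8.22 CPM in MN, at 86.9, 72.2, 96.6 and 81.1 CPM in CRV and at 118, 18.4, 105 and 108 CPM in nDA. Here replicate 2 sat just above the MN libraries while the other 3 nDA libraries were the highest of the 15. MN minus FT log2 fold changes were -2.26 (SE 0.34) for Lars2 and -2.10 (SE 0.35) for Fastk. ND6, the mitochondrially encoded transcript that Fastk is known to stabilise, did not pass the edgeR test in the same contrast, with a log2 fold change of 0.16 (SE 0.31, adjusted p = 0.961). The libraries came from sorted nuclei, and any use of strand in counting is not given. No effect of Fastk on that transcript is read from this value.

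Lypla2 (chr4:135968224-135972626, - strand), an acyl-protein thioesterase that removes palmitate from membrane-anchored proteins, was at 98.5, 97.1, 89.2 and 95.8 CPM in FT, with a coefficient of variation of 4.33%. It was at 26.1, 12.2 and 13.7 CPM in MN, at 74.2, 62.8, 54.97 and 68.5 CPM in CRV and at 102, 7.60, 97.3 and 84.5 CPM in nDA. CRV lay between MN and FT without overlap on either side, and nDA replicate 2 was the lowest library. The MN minus FT log2 fold change was -2.45 (SE 0.32).

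**Figure D1:**
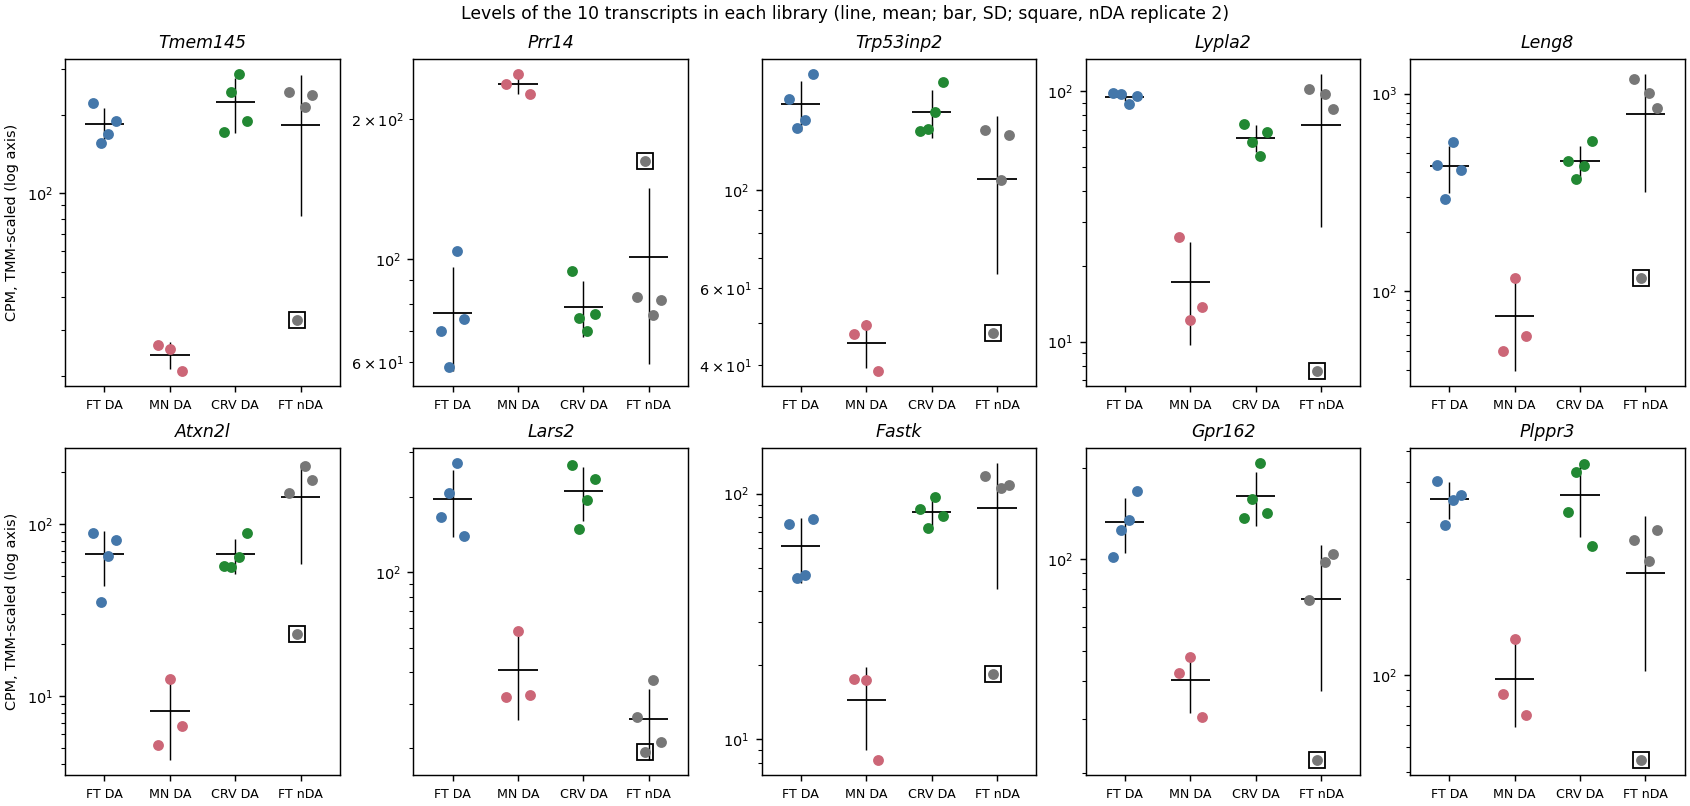
CPM of each of the 10 transcripts (log axis, scaled to each panel) in every library of dopaminergic nuclei after food training (FT DA, n = 4), maintenance (MN DA, n = 3) and abstinence (CRV DA, n = 4) and of non-dopaminergic nuclei after food training (FT nDA, n = 4); points are libraries, lines means, bars SD, and the square marks nDA replicate 2. The MN points lie outside the FT DA and CRV DA points in all 10 panels. The squared point lies outside the other 3 nDA points in the direction of the MN minus FT difference, by a small distance for Lars2.

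In all 10 transcripts the 3 MN libraries lay beyond all 8 other dopaminergic libraries, with a gap between the nearest libraries of 1.94-fold to 5.96-fold. Over the 19060 genes tested, 2.36% had all MN libraries below and 1.78% all above the other 8. The edgeR quasi-likelihood test with Benjamini-Hochberg adjustment called 25 genes between MN and FT, 0.131% of those tested (0.126% lower, 0.00525% higher in MN), and 34 between CRV and MN, 0.178% (0.168% higher, 0.0105% lower in CRV). The 10 members are among both, which follows from how they were chosen and is not read further. CRV minus MN log2 fold changes ran from 1.74 for Trp53inp2 to 3.21 for Tmem145 in the 9 lower members and were -1.60 for Prr14.

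A shift to the same side was also seen in 1 library from mice labelled as food-trained only, with no cocaine. For all 10 transcripts nDA replicate 2 lay outside the other 3 nDA libraries, in the direction of the MN minus FT difference. For Lars2 the MN libraries, at 31.9 to 58.4 CPM, were themselves above replicate 2, at 19.3 CPM. Over all tested genes replicate 2 was below the other 3 in 28.3% and above them in 37.7%, at any size of gap. In 9 of the 10 transcripts its gap to the mean of the other 3 was at least 2-fold. Among all genes tested, 9.19% were below the other 3 with at least that gap and 5.37% were above them with it. Replicates 1, 3 and 4, treated the same way, were below their group with that gap in 1.61%, 4.43% and 4.74% of genes. The log2 differences of replicate 2 were -3.63 for Lypla2, -3.10 for Leng8, -2.98 for Atxn2l, -2.83 for Tmem145, -2.58 for Fastk, -2.24 for Plppr3, -2.04 for Gpr162 and -1.39 for Trp53inp2. They were -0.51 for Lars2 and 1.02 for Prr14, and the median over all tested genes was 0.11. This library was chosen for inspection with these values known, and 1 library against 3 gives no test.

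In 9 of the 10 transcripts, Lars2 being the exception, the 3 MN libraries and nDA replicate 2 together lay beyond the other 11 libraries. The same split was found in 1.14% of tested genes in the lower direction and 0.414% in the higher. The pattern reached beyond the chosen transcripts. Of the 449 genes with all MN libraries below the other dopaminergic libraries, nDA replicate 2 was below the other 3 nDA libraries in 85.7%, while replicates 1, 3 and 4 were so in 3.56%, 4.45% and 6.24%. Of the 339 genes with all MN libraries above, replicate 2 was above the other 3 in 77% and the other replicates in 6.19%, 10.3% and 6.49%. Over all tested genes replicate 2 was below the other 3 in 28.3% and above them in 37.7%. Only 1 of the 4 nDA libraries can be lowest or highest for a gene, so the other replicates' shares follow largely from that of replicate 2. The 449 and 339 genes include the members. At a gap of at least 2-fold, replicate 2 was below in 54.3% of the 449 genes (9.19% of all genes) and above in 10.9% of the 339 (5.37% of all genes). Over 18147 genes (genes are no replicates of each other), the deviation of replicate 2 from the other 3 had a Pearson r of 0.25 with the MN minus FT difference and of -0.04 with the CRV minus FT difference.

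**Figure D2:**
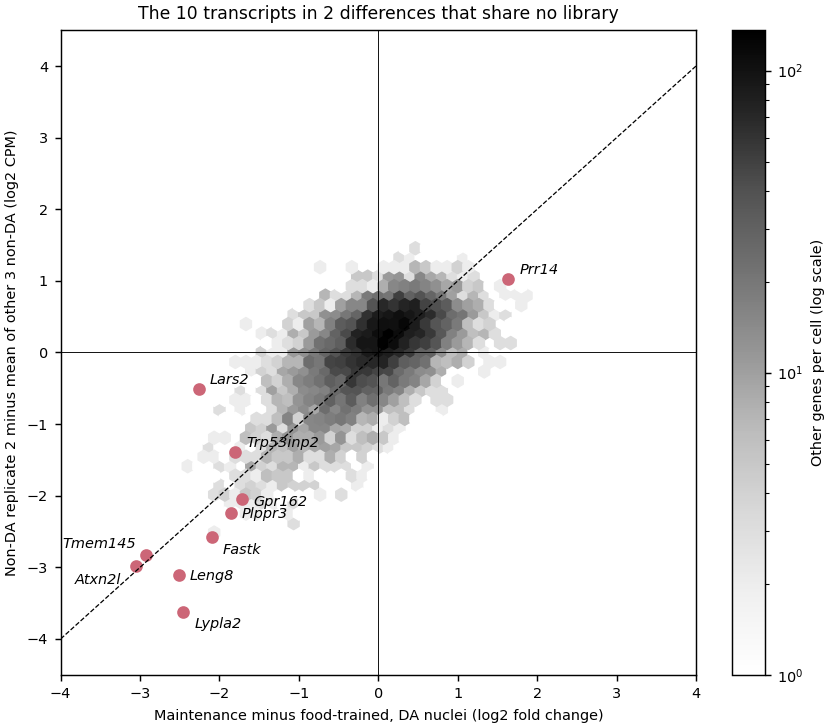
Log2 fold change between MN and FT dopaminergic nuclei (x axis) against the log2 CPM of nDA replicate 2 minus the mean of the other 3 nDA libraries (y axis); red points are the 10 transcripts, grey cells count other genes with a mean log2 CPM over 4, and the dashed line marks equal differences. Prr14 lies at 1.64 and 1.02, Lars2 at -2.26 and -0.51, and the other 8 transcripts lie low on both axes.

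The library also stood apart in other measures, but not in all. The 13 mitochondrially encoded genes summed to 3334 CPM in nDA replicate 2 against 2029 to 2327 CPM in the other 3 nDA libraries, and astrocyte markers (7 genes) to 4519 against 2303 to 3266 CPM. Malat1, a nuclear noncoding RNA, took 9.0% of its counts against 6.45% to 7.31%, and the 20 most abundant genes 19.1% against 14.5% to 15.0%. Dopamine neuron markers (10 genes) summed to 536 CPM against 351 to 425 CPM. Summed oligodendrocyte markers (12 genes) were at 22256 CPM in nDA replicate 2 against 7652 to 14020 CPM in the other 3 nDA libraries, and summed microglial markers (7 genes) at 3089 against 1579 to 1919 CPM. Summed glutamate neuron markers (3 genes) lay inside the range of the other 3 nDA libraries, at 460 against 375 to 642 CPM. Summed GABA neuron markers (3 genes) lay just below it, at 191 against 197 to 259 CPM. Between dopaminergic groups the summed oligodendrocyte markers overlapped, at 997 to 1402 CPM in MN and 914 to 1591 CPM in FT, while astrocyte markers were at 2094 to 2248 CPM in MN, 1693 to 2173 in FT and 1337 to 1845 in CRV. Of the 12 oligodendrocyte markers, 9 had lower values in MN than in FT, with a median log2 fold change of -0.80, and 1 passed the edgeR test, Olig1, a transcription factor of that lineage. Olig1 was at a mean of 0.0688 CPM in MN, where 2 of 3 libraries had no count, against 32.9 CPM in FT (edgeR adjusted p = 0.0103) and 38.2 CPM in CRV. Of 3 markers of GABA neurons, 2 had higher values in MN than in FT (median log2 fold change 0.99), and 0 passed (2 had an unadjusted p under 0.05). Of the 7 microglial markers, 5 had lower values in MN (median log2 fold change -0.29), 0 passed and 2 had an unadjusted p under 0.05, and their sum overlapped, at 469.6 to 1014 CPM in MN and 525 to 948 CPM in FT. No gene of the oligodendrocyte, microglial and astrocyte lists was at 0 in every library. Their part in the members' levels was not tested.

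Content of G and C moved with the same libraries. The longest annotated transcripts of the 10 genes held 51.2% GC (Lars2) to 61.4% (Lypla2), all above the median of 49.6% over the 16253 tested genes with a value, and 8 of 10 were above the upper quartile of 54.3%. Their lengths, 1626 (Lypla2) to 5599 bases (Leng8), spanned the median of 3172. Within each library a slope of log2 CPM on GC percent was fitted over 8172 genes, after subtracting each gene's mean over the 15 libraries. It was -0.0377, -0.0224 and -0.0377 per percent GC in MN replicates 1 to 3 and -0.0248 in nDA replicate 2. In the other dopaminergic libraries it was -0.0166 to 0.0205, and in the other 3 nDA libraries 0.0210 to 0.0323. The 3 MN libraries and nDA replicate 2 thus had the 4 lowest slopes. The slope on log2 transcript length, per doubling, was 0.0403 in nDA replicate 2, below the other 3 nDA libraries at 0.117 to 0.261, and it was -0.125 to -0.0322 in MN against -0.187 to 0.0584 in FT.

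Composition was examined beside the maintenance values. Among 2903 genes with a mean log2 CPM over 4 and GC content within the range of the 9 lower members, the median MN minus FT log2 fold change was -0.22 and the 5th percentile -1.49. The median of the 9 was -2.26, but they were chosen for large values in this contrast, so nothing is read from the difference. With a GC offset per library in the fit, the values became -2.35 for Tmem145, -1.25 for Gpr162, -1.26 for Plppr3, -1.75 for Trp53inp2, -2.24 for Leng8, -2.68 for Atxn2l, -2.28 for Lars2, -1.72 for Fastk and -1.75 for Lypla2. The higher level of Prr14, with 56.2% GC, became larger, from 1.64 to 1.91. Across 8172 genes Spearman's rho with GC content was -0.33 for the MN minus FT difference, -0.46 for the deviation of nDA replicate 2 and 0.02 for the CRV minus FT difference. With log2 length it was -0.06, -0.24 and 0.0028 in the same order. The labels give no date or run of library preparation, so the maintenance stage and anything else that the 3 MN libraries share cannot be told apart.

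**Figure D3:**
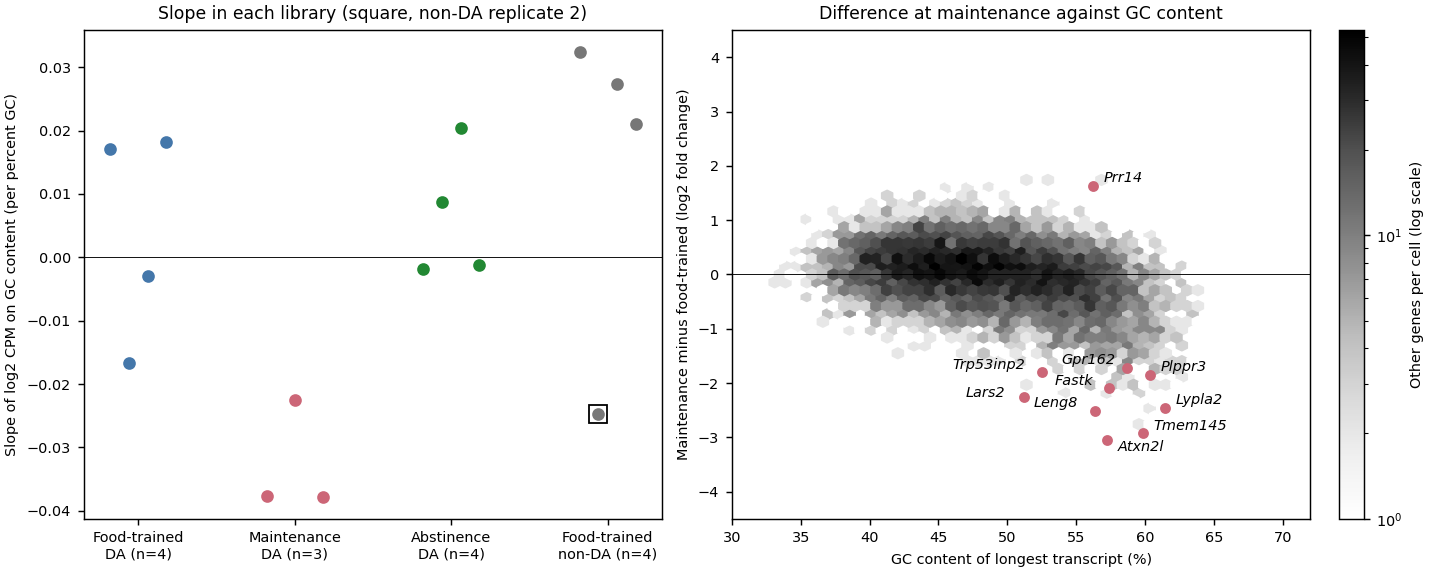
Left, slope of the centred log2 CPM on GC content (per percent GC) in each library, with nDA replicate 2 squared; right, MN minus FT log2 fold change against GC content of the longest transcript for genes with a mean log2 CPM over 4, counted in grey cells, and for the 10 transcripts in red. The MN libraries and nDA replicate 2 have slopes of -0.0224 or lower, and the 10 red points lie at 51.2% to 61.4% GC, at the edge of the cloud or beyond it.

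After abstinence the levels of the 10 transcripts lay near those in FT. The FT and the CRV libraries both entered the comparisons with MN on which the members were chosen, so this nearness is largely set by the choice and is given as a description. None of the 10 passed the edgeR test between CRV and FT, where 0% of the 19060 genes did (819 genes and 0 members at an unadjusted p under 0.05, and 145 genes, 0.761%, but 0 members by DESeq2). The log2 fold changes ran from -0.55 for Lypla2 (95% interval -1.12 to 0.03) to 0.45 for Fastk (-0.20 to 1.11). Tmem145 was at 0.28 (-0.20 to 0.76), Gpr162 at 0.28 (-0.23 to 0.80), Leng8 at 0.10 (-0.53 to 0.73), Lars2 at 0.10 (-0.52 to 0.72), Plppr3 at 0.05 (-0.49 to 0.58) and Prr14 at 0.04 (-0.44 to 0.52). Trp53inp2 was at -0.06 (-0.50 to 0.37) and Atxn2l at -0.01 (-0.77 to 0.75). The median was 0.07 for the 10 and 0.04 over all tested genes. Lypla2 was the only member whose 4 CRV libraries all lay below its 4 FT libraries.

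The comparison of dopaminergic with non-dopaminergic nuclei of food-trained mice separated 1 of the 10 transcripts. Lars2 was higher in dopaminergic nuclei, by 7.38-fold (log2 fold change 2.88, SE 0.30, adjusted p = 0.00223 by edgeR), with all 4 FT libraries above all 4 nDA libraries. Over all 19786 genes tested, 12.8% passed, 3.63% higher and 9.17% lower in dopaminergic nuclei. Without nDA replicate 2, 3 of the 10 passed, with 12% of 20194 genes (3.08% higher, 8.94% lower). Lars2 was then at 2.76 (adjusted p = 0.0106), Leng8 at -1.27 (adjusted p = 0.0189) and Atxn2l at -1.48 (adjusted p = 0.0215). With replicate 2 included, Leng8 was at -0.91 (adjusted p = 0.395) and Atxn2l at -1.12 (adjusted p = 0.290). Replicate 2 was singled out with its low values of these transcripts known, and leaving it out raises their nDA level, so the values without it for Leng8 and Atxn2l are descriptions and no direction is taken from them. These comparisons share the FT libraries with the one at maintenance.

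The other 7 transcripts did not pass with or without replicate 2. With it, the log2 fold changes were 0.80 for Gpr162, 0.74 for Plppr3, 0.54 for Trp53inp2, 0.36 for Lypla2, -0.02 for Tmem145, -0.42 for Prr14 and -0.54 for Fastk. Without it they were 0.50, 0.42, 0.29, -0.02, -0.37, -0.10 and -0.88 in the same order. Lypla2 thus changed sign. Tmem145 took either sign over the alternatives tried (scalings, filters, tests, the block and the libraries in the fit), so no direction is given for it.

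**Figure D4:**
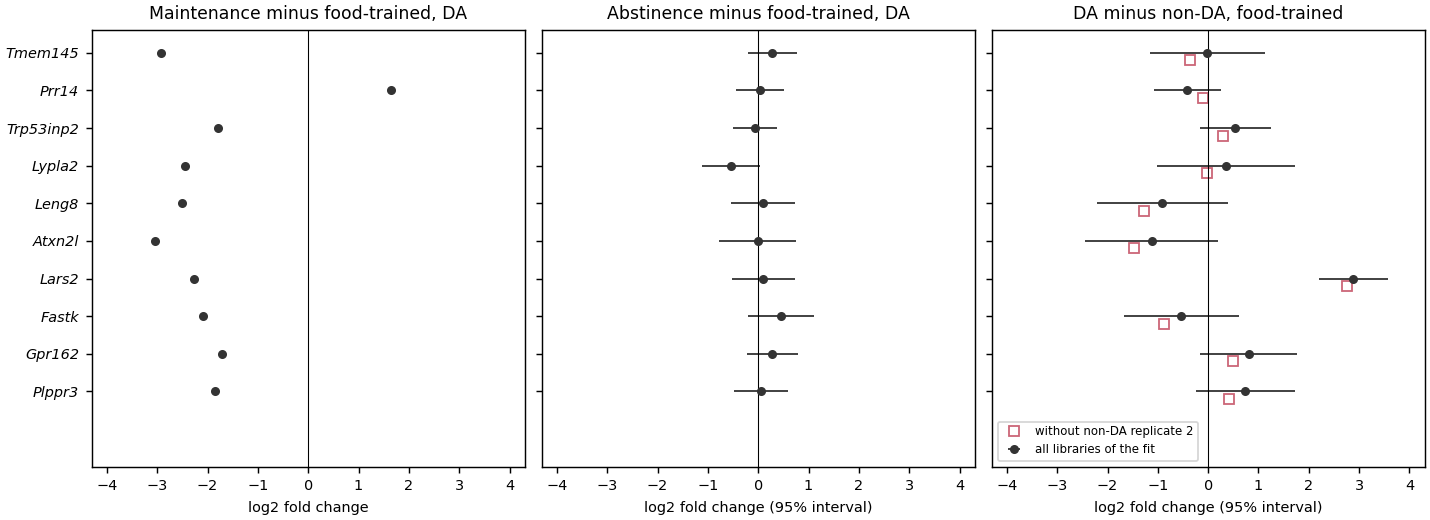
Log2 fold changes of the 10 transcripts for MN minus FT (left, values on which the transcripts were chosen), CRV minus FT (middle) and dopaminergic minus non-dopaminergic nuclei (right); bars in the middle and right panels are 95% intervals from the edgeR fit, and open squares are the fit without nDA replicate 2. In the middle panel all points lie between -0.55 and 0.45, and in the right panel Lars2 stands alone at 2.88.

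Over the 15 libraries the log2 levels of the 9 lower members followed each other. Pearson's r was 0.65 to 0.98 in the 28 pairs without Lars2 and 0.19 to 0.76 in the 8 pairs with it, and it was -0.95 to -0.51 for the 9 pairs with Prr14. These are descriptions over libraries that share their groups and were used to choose the members. The 5 other genes most like Tmem145 among 14854 searched were Pink1 (r = 0.96), a mitochondrial quality-control kinase, the septin Sept5 (0.96), the GTPase-activating protein Rap1gap (0.95), the proline transporter Slc6a7 (0.94) and Prrt2 (0.94), a presynaptic protein. Each of these 5 was also lowest in the MN libraries and nDA replicate 2. Rap1gap was at 136 to 310 CPM in FT, 20.5 to 51.4 in MN, 147 to 229.6 in CRV and 29.0 in nDA replicate 2, against 212 to 269 in the other 3. The 5 most like Prr14 were Phf20 (0.87), Kif15 (0.86), Sept2 (0.86), Prpf38b (0.85) and Dynlt1c (0.84). Over 14 libraries, without nDA replicate 2, r was 0.68 to 0.98 in the pairs without Lars2 and Prr14, 0.14 to 0.70 with Lars2 and -0.95 to -0.46 with Prr14. The genes named kept r of 0.93 to 0.96 with Tmem145 and 0.85 to 0.88 with Prr14, and 2 of the 5 most like Tmem145 (Pink1 and Sept5) and all 5 most like Prr14 were the same. By Spearman's rank correlation 1 of 5 was shared in each list, Slc6a7 and Prpf38b.

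Relatives and partners of the 10 proteins were chosen by their family or known partners, not for passing a test as the 10 were, so the counts of the 2 sets are not compared. Of 51 such genes, all tested, 0 passed the edgeR test between MN and FT, which only 0.131% of all genes passed. An unadjusted p under 0.05 was found for 8 (15.7%, against 11.6% of all genes). The median log2 fold change of the 51 was 0.06 against -0.01 over all genes. By DESeq2, 2 of the 51 passed (3.92%, against 5.2% of all genes), Plppr2 and Yars2. Plppr2, of the same family as Plppr3, was the closest to it, at 130 to 175 CPM in FT and 62.7 to 68.6 CPM in MN (a difference of -1.19 on the log2 scale, adjusted p = 0.187 by edgeR) and at 27.8 CPM in nDA replicate 2 against 112 to 172 CPM in the other 3. Plppr4, another of that family, was at 279 to 520.04 CPM in FT and 335 to 716 CPM in MN (log2 fold change 0.34, adjusted p = 0.831). Gpr153, the relative of Gpr162, was at 25.0 to 36.6 CPM in FT and 0.365 to 16.0 CPM in MN (log2 fold change -1.90, SE 0.83, adjusted p = 0.410).

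Among the other relatives the values went both ways. Prr14l, the paralog of Prr14, had a log2 fold change of -0.26 (adjusted p = 0.880), against the higher level of Prr14, and Atxn2, the paralog of Atxn2l, one of -0.02 (adjusted p = 1.00). Ppt1, a lysosomal palmitoyl-protein thioesterase, was at 0.90 (adjusted p = 0.359) where Lypla2 was lower. Of 5 genes of the family of Fastk, 4 had higher values in MN than in FT (median 0.84, 0 passed), against the lower level of Fastk. Fastkd3 was at 16.3 to 37.8 CPM in MN and 0 to 20.2 CPM in FT (adjusted p = 0.700), and Tbrg4, the fifth, at 1.36 to 11.9 CPM in MN and 8.50 to 16.4 CPM in FT (adjusted p = 0.560). Both relatives of Leng8 with a SAC3 domain, Sac3d1 at 0.78 (adjusted p = 0.643) and Mcm3ap at 0.30 (adjusted p = 0.961), had values opposite to that of Leng8. Of the aminoacyl-tRNA synthetases beside Lars2, Aars2 was at -2.96 (adjusted p = 0.411) and Yars2 at -1.40 (adjusted p = 0.347), and summed over 17 genes the list stood at 325 to 426 CPM in MN and 304 to 434 CPM in FT. Gabarapl1, an autophagosome protein that Trp53inp2 binds, was at 0.67 (adjusted p = 0.394), and Gpr107, of the same seven-transmembrane type as Tmem145, at -1.17 (adjusted p = 0.394). None of the 51 passed between CRV and FT (0 at an unadjusted p under 0.05). Between populations 5 of the 51 passed the edgeR test (9.80%, against 12.8% of all genes), 3 higher and 2 lower in dopaminergic nuclei. Without nDA replicate 2 the count was 5, with 4 higher and 1 lower, and by DESeq2 it was 15 (29.4%, against 19.6% of all genes), with 9 higher and 6 lower. The relatives' share was thus below that of all genes in the edgeR fits given here and above it by DESeq2. It moved with other edgeR settings too, and no difference from other genes is read from it.

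The members lay on 7 chromosomes, 4 of them (Tmem145, Prr14, Leng8, Atxn2l) on chromosome 7, Atxn2l and Prr14 956174 bases apart. Of the 20 nearest tested protein-coding neighbours, 1 on each side of each gene, 11 were lower and 9 higher in MN than in FT, with a median log2 fold change of -0.27, and 1 passed the edgeR test. That gene was Palm, 39579 bases from Plppr3, at 8.60 CPM in MN against 41.4 CPM in FT (log2 fold change -2.27, SE 0.40, adjusted p = 0.0489). Other annotated genes overlapped Prr14, Leng8, Fastk and Plppr3, and any use of strand in counting is not given in the sources used here, so reads there cannot be assigned with certainty. The 5 overlapping genes that were tested did not pass between MN and FT, and B130055M24Rik, which overlaps Prr14 by 750 bases on the same strand, was at 86.3 against 79.6 CPM (log2 fold change 0.12).

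Promoter windows of 300 bases were found for 9 of the 10 genes in the RefSeq table (11 windows, Leng8 and Atxn2l having 2 each, and none for Gpr162). Their GC content was 55% to 73%, with a median of 65.7%, against a median of 52.7% over all 32851 windows. GGGCGG occurred on either strand in 9 of 11, as in the window of Tmem145 printed above, and in 35.7% of all windows; Prr14 and Plppr3 held none. CCAAT occurred in 5 of 11 against 37.4%, TGACGTCA in 1 of 11, that of Trp53inp2, against 1.79%, and neither TATAAA (13.6% of all) nor CACGTG (7.15%) in any. Each of the 5 motifs was counted by itself, overlaps included, TGACGTCA and CACGTG read the same on both strands, and a match to letters is not a bound site.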

How the data were processed

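The authors deposited whole-number counts per gene and library for 35976 symbols in 15 libraries. Trim Galore 0.6.7, cutadapt 1.18, STAR 2.7.10a, StringTie 2.1.5 and DESeq2 1.38.3, with builds mm10 and GRCm38, are named per the submitters' processing notes, without their roles. Per the labels' protocols, libraries came from a low-input cDNA kit. A second deposited table held the same counts for 10 libraries, the dopaminergic ones without FT replicate 3 (0 cells differed), and was not used further.

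Counts were analysed with edgeR 4.0.16 in R 4.3.3: filterByExpr, TMM scaling, quasi-likelihood F-test, two-sided, Benjamini-Hochberg adjusted p under 0.05 over all genes. The 3 stages were contrasts in 1 fit of the 11 dopaminergic libraries, and the populations were compared in the 8 food-trained libraries. SE is the log2 fold change over the square root of F. Likeness and slopes used log2 CPM with a prior count of 2. Alternatives were other scalings, filters, a GC offset (lowess, span 0.3), a replicate block, DESeq2 1.42.0, other libraries in the fit and leaving out each library. Scripts were tested on simulated data. Positions came from GENCODE M21 (GRCm38), in which 26763 symbols were found as written and 17 more by an alias, and promoters from RefSeq (GRCm38.p6).

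Members, lists and tests were chosen with earlier results of these data known. Named genes are the members, up to 4 relatives per list with the lowest p at maintenance, the 5 genes most like Tmem145 and Prr14 (at least 20 counts on average) and the nearest tested neighbours. The values of some genes under this rule are not reported here. B130055M24Rik and ND6 were named after their values were seen. The ribosomal RNA-like list had no gene in the table.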

Additional observations from a re-analysis of the deposited data

Results flagged for a closer look

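Within each group of 4 libraries, the highest or lowest library was set against the group's range (Dixon's ratio, critical value 0.829). Of 30 such groups, 3 held a library beyond it, all in nDA replicate 2. Chance flags about 1 in 20 independent groups, but these transcripts were chosen together and their levels follow each other, so that rate cannot be set against the 3. Tmem145 was at 32.6 CPM there, against 214 to 244 CPM in the other 3. Prr14 was at 162.9 CPM, against 75.9 to 83.1 CPM. Fastk was at 18.4 CPM, against 105 to 118 CPM. These are the values described above for that library, and the MN groups of 3 were not examined this way.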

How the results depend on the processing

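Counts of called genes moved with the method. Between MN and FT they were 25 as reported, 109 with at least 10 counts in every library, 992 by DESeq2, 1 with only both groups in the fit and 5 to 78 when 1 library was left out (lowest without MN replicate 1, highest without MN replicate 2). Between CRV and MN they were 34, and 22 with upper quartile scaling or only both groups, 69 with at least 10 counts, 18 with the GC offset, 792 by DESeq2 and 6 to 73 when 1 library was left out. Between CRV and FT DESeq2 called 145. Between populations 2534 became 1643 with at least 10 counts, 3883 by DESeq2 and 1900 to 3740 when 1 library was left out. The labels do not say whether same-numbered samples share tissue. Deviations of same-numbered FT and nDA libraries correlated at 0.03 to 0.09 and those of different numbers at -0.06 to 0.06, and 6 of 8 libraries correlated best with their own number, which is a hint from the data. As no pair passed 0.1, the numbers were not taken as pairs. With the replicate block the calls were 0 (MN and FT), 2 (CRV and MN) and 775 (populations), and with block and GC offset 0, 1 and 866.

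The median of the 9 lower members at maintenance, -2.26, was -1.75 with the GC offset and -1.83 with block and GC offset; leaving out 1 library gave -2.39 to -2.12. Members called between populations numbered 1 to 3 when 1 library was left out, 3 without nDA replicate 2. Signs near 0 turned. Between populations Tmem145 (-0.02) was 0.0059 with DESeq2 size factors, 0.0058 by DESeq2, 0.011 with all 15 libraries, 0.0033 with at least 10 counts, 0.066 with upper quartile scaling, 0.073 with the GC offset, 0.28 with the block, 0.25 with block and GC offset and -0.37 to 0.19 when 1 library was left out, which took Lypla2 from -0.025 to 0.60. Between CRV and FT Prr14 was -0.0048 with DESeq2 size factors and -0.0046 by DESeq2, and Atxn2l 0.019 with the GC offset. Leaving out 1 library there gave -0.076 to 0.22 for Prr14, -0.15 to 0.019 for Trp53inp2, -0.052 to 0.27 for Leng8, -0.23 to 0.15 for Atxn2l, -0.031 to 0.31 for Lars2 and -0.077 to 0.19 for Plppr3. Causes were not tested.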
